A study of Mus musculus and Homo sapiens with 81 samples.

Results

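B16 mouse melanoma cells edited at Ptpn2 were given IFNg or vehicle, and their RNA was compared. The comparison rests on 6 of the 81 libraries of the series, chosen by their labels: 3 Ptpn2-null IFNg libraries and 3 Ptpn2-null vehicle libraries. The series holds 42 B16 libraries in all. The Ptpn2-null cells carried the guide Ptpn2sg3 and the control cells the non-targeting guide Bro3, with Cas9 expressed in both. IFNg was given at 100 ng/mL for 48 h, and vehicle was PBS with 0.1% BSA. The response of control B16 cells to the same dose and time, also 3 libraries against 3, is given only to show where the Ptpn2-null response differed. Cells labelled Ptpn2ko are called Ptpn2-null here, and Ptpn2 protein was not analysed. RNA was captured by its poly(A) tail and made into strand-marking libraries read from both ends. Each genotype rests on a single guide, so the effect of losing Ptpn2 and any further difference between the cells of each guide cannot be told apart. The labels do not say that replicates came from separate cultures, and the p-values may then cover only technical spread.

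IFNg binds a receptor made of the chains Ifngr1 and Ifngr2, which activates the kinases Jak1 and Jak2. Their signal reaches the gamma-activated site (GAS) before Irf1 and other genes. Irf1 binds the interferon-stimulated response element (ISRE), as do complexes that hold Stat2 and Irf9. Ptpn2 is a tyrosine phosphatase that removes phosphate from Jak1. In melanoma cells IFNg is known for inducing antigen presentation and T cell chemokines and for slowing growth.

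The sequences below show where these elements lie before 6 of the genes that carry the response: Irf1, the feedback inhibitor Socs3, the GTPases Igtp and Gbp2, the chemokine Cxcl10 and the antiviral gene Ifit1. Each is the run of 250 bases before the gene's start, read 5′ to 3′ on the gene's strand, from RefSeq on GRCm38.p6. Capitals mark the GAS motif TTCNNNGAA, which reads the same on both strands, or the ISRE motif, TTTC, any 2 bases and TTTC again, searched on both strands.
Irf1 (chr11:53769764-53770013, plus strand): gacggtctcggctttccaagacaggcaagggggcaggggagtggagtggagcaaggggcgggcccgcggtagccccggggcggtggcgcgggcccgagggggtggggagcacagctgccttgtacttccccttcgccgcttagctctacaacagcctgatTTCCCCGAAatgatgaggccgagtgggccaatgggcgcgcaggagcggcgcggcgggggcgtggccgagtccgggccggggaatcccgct
Socs3 (chr11:117969367-117969616, minus strand): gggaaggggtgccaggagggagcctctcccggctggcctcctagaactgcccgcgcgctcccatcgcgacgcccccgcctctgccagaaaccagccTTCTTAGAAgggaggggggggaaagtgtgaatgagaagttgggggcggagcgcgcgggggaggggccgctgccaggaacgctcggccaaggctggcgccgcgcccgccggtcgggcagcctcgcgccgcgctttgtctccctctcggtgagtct
Igtp (chr11:58199306-58199555, plus strand): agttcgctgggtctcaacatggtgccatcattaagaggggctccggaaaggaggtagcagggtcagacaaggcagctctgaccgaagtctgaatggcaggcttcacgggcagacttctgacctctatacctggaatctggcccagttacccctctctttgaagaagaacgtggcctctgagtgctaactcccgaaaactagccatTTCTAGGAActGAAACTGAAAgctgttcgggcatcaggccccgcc
Gbp2 (chr3:142620413-142620662, plus strand): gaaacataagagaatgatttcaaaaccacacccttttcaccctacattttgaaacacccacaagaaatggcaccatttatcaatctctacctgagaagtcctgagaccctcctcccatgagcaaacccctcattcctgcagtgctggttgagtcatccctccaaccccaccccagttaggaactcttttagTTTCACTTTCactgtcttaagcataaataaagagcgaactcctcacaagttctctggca
Cxcl10 (chr5:92348890-92349139, minus strand): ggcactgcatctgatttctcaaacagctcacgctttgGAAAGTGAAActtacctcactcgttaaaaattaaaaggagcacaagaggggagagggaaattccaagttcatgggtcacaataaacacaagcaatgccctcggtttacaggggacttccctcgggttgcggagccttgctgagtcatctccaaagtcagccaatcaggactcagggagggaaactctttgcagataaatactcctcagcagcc
Ifit1 (chr19:34640639-34640888, plus strand): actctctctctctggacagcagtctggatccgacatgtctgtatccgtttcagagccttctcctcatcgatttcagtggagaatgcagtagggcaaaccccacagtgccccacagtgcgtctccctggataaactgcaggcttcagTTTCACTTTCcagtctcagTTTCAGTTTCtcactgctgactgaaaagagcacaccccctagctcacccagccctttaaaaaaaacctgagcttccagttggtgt
The Irf1 motif, a GAS, began 90 bases before the start printed here. RefSeq gives Irf1 another start, with the window chr11:53770223-53770472, which held neither motif and is not printed. The Socs3 GAS began 154 bases before the start. Igtp held a GAS at 45 bases and an ISRE at 34 bases, with no shared base. The Gbp2 ISRE lay at 59 bases and the Cxcl10 ISRE at 213 bases. Ifit1 held an ISRE at 104 bases and another at 85 bases. A promoter window was found for 8433 of the 11726 genes tested. The ISRE motif was in the windows of 26.4% of the 193 genes at least 16-fold higher under IFNg in Ptpn2-null cells, in 10.4% of the 781 at least 2-fold higher, in 2.60% of the 462 at least 2-fold lower, in 2.43% of the 3369 not called and in 2.98% of all 32851 windows of this length. The GAS motif was in 14%, 12.3%, 5.63%, 6.71% and 7.02% of the same sets, in the same order. Over all 8433 tested genes with a window, the shares were 3.18% for the ISRE and 7.32% for the GAS. Both motifs were found for 37 of these genes, in the same window or in different windows of the gene. A match describes letters in a window and is not evidence of binding.

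Ptpn2 itself was measured first. It held 9.41, 10.5 and 13.5 CPM (read counts scaled to each library's size) in the Ptpn2-null IFNg libraries and 8.23, 8.75 and 10.1 CPM in the Ptpn2-null vehicle libraries. Control cells held 51.9, 57.5 and 54.9 CPM under IFNg and 45.4, 47.9 and 45.0 CPM under vehicle. The Ptpn2-null libraries were below every control library, with a log2 genotype difference of -2.28 ± 0.11 under IFNg and -2.35 ± 0.12 under vehicle (SE, edgeR adjusted p = 1.66e-23 and 1.14e-21). Within Ptpn2-null cells the IFNg effect on Ptpn2 was 0.32 ± 0.15 and did not pass the threshold (adjusted p = 0.071). It passed without Ptpn2-null IFNg replicate 1 (0.44) or without Ptpn2-null vehicle replicate 3 (0.41).

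The 6 libraries held 4784735 to 6252524 counts. Melanocyte markers were abundant in all 6: Tyrp1 held 7694 to 7813 CPM under IFNg and 11817 to 12091 CPM under vehicle. Of the 16 leukocyte markers only Cd68 had enough reads to be tested, and the summed level of the list was 7.39 to 9.63 CPM under IFNg and 1.69 to 3.12 CPM under vehicle. The other 15, Ptprc, Cd3e and Itgam among them, had at most 10 reads each over the 6 libraries. No epithelial marker had enough reads, and the fibroblast list summed to 27.8 to 31.3 CPM under IFNg and 43.5 to 51.9 CPM under vehicle. In bulk RNA, fewer cells of a type and less RNA per cell cannot be told apart.

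IFNg changed most tested genes of Ptpn2-null B16 cells. In edgeR's quasi-likelihood test, with a Benjamini-Hochberg adjusted p under 0.05 as the threshold, 6964 of 11726 genes passed (59.4%). Of these, 3395 were higher (29.0%) and 3569 lower (30.4%) under IFNg. The large changes were mostly increases: 1129 genes were at least 2-fold higher (9.63%) and 654 at least 2-fold lower (5.58%), while 288 were at least 16-fold higher and 5 at least 16-fold lower. Genes with few or no vehicle reads were also tested, and these could rise far but hardly fall. The median log2 change over all genes was -0.01. The 1129 genes held 16.7% to 16.9% of all reads in the IFNg libraries and 2.73% to 2.75% in the vehicle libraries. With so many genes past the threshold, the counts of list members below are to be read against these percentages. The share of all genes whose groups did not overlap is not given here. A lack of overlap below therefore only describes the values of the genes named and does not set them apart from other genes.

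The receptor itself was not raised, while the kinases and STAT factors downstream of it were. Stat2, a transducer of the type I response, held 277, 270 and 276 CPM under IFNg and 11.7, 11.0 and 10.1 CPM under vehicle. The groups were far apart, at a log2 change of 4.64 ± 0.08 (edgeR adjusted p = 1.0e-44). Stat3 rose by 3.23 ± 0.06. Jak2 rose by 1.54 ± 0.10, and Jak1 held 432, 428 and 441 CPM under IFNg and 203, 201 and 207 CPM under vehicle (1.09 ± 0.06). Ifngr2 fell to 66.1, 54.2 and 65.4 CPM under IFNg, against 117, 120 and 124 CPM under vehicle, with no overlap (-0.96 ± 0.06). Ifngr1 was not called, at 18.9 ± 1.91 CPM under IFNg and 17.5 ± 0.49 CPM under vehicle (SD, n = 3 each). Of 10 tested genes of the receptor and JAK-STAT list, 6 rose and 2 fell, beside 29.0% and 30.4% of all genes. The lower 2 were Ifngr2 and Stat5a (-0.26 ± 0.10), whose call was lost with DESeq2, with no filter and without Ptpn2-null IFNg replicate 1 or 3 or vehicle replicate 2, at -0.24 to -0.23.

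Of 7 interferon regulatory factors, 6 rose and Irf3, the factor activated by viral RNA sensing, was not called (-0.15 ± 0.10). Irf1 held 1223, 1170 and 1214 CPM under IFNg and 14.3, 14.4 and 16.2 CPM under vehicle, a log2 change of 6.33 ± 0.06. Irf7, which amplifies type I interferon production, held 417, 406 and 394 CPM under IFNg and 0.475, 0 and 0.506 CPM under vehicle (10.07 ± 0.13). Irf8, best known from myeloid cells, had no vehicle reads and 68.5 to 70.5 CPM under IFNg. It was at least 394-fold higher, where the bound for a gene with no vehicle reads is set against a floor of 3 reads over the vehicle group. Irf9 rose by 4.62 ± 0.11.

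Feedback inhibitors of the pathway rose as well, in 6 of 10 tested, beside 29.0% of all genes. Socs1, which blocks the JAK kinases, held 119, 116 and 106 CPM under IFNg and 1.11, 1.25 and 1.01 CPM under vehicle (6.64 ± 0.19). Socs3, an inhibitor of cytokine receptor signalling, held 167, 158 and 157 CPM under IFNg and 10.5, 6.25 and 5.56 CPM under vehicle (4.41 ± 0.12). Usp18, which restrains the type I interferon receptor and removes Isg15 from proteins, rose by 8.93 ± 0.14. These 3 inhibitors had no overlap between groups. The phosphatase Ptpn1 rose little (0.35 ± 0.06), Ptpn6 fell (-0.71 ± 0.19) and Ptpn11 was not called (-0.07 ± 0.07, adjusted p = 0.38).

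**Figure D1:**
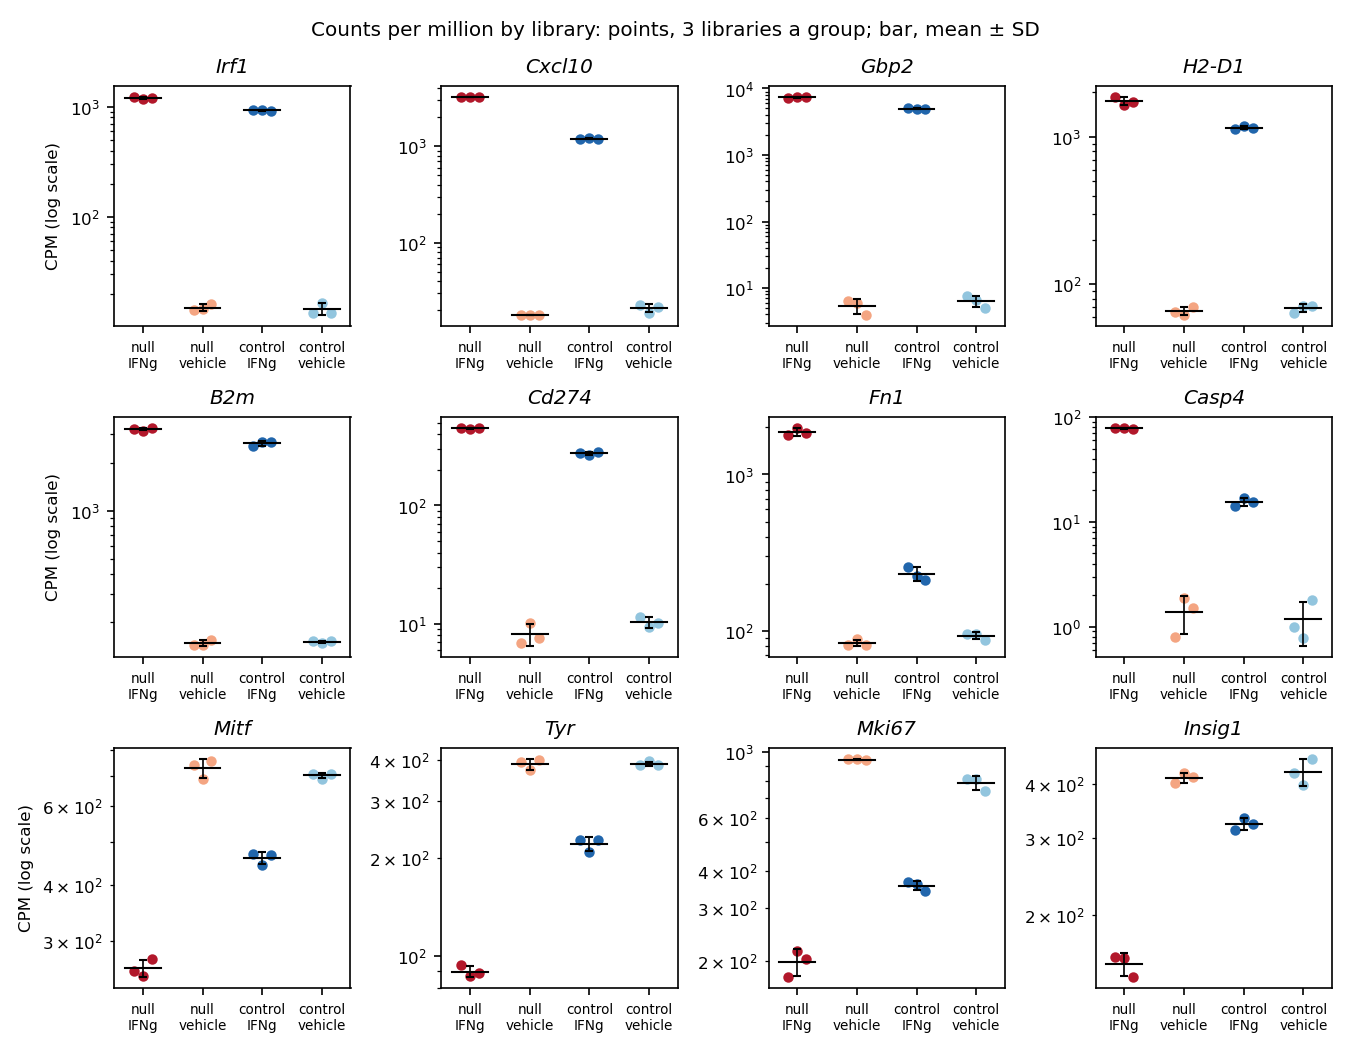
CPM on log axes for 12 genes, with 1 point per library and the mean ± SD of 3 libraries as bars, for Ptpn2-null IFNg, Ptpn2-null vehicle, control IFNg and control vehicle. Irf1 was at 1170 to 1223 CPM in Ptpn2-null IFNg libraries and at 14.3 to 16.2 CPM in Ptpn2-null vehicle libraries, and Mitf, Tyr, Mki67 and Insig1 were lowest in the Ptpn2-null IFNg libraries.

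Genes of the MHC class I pathway rose together, from the transcriptional activator to the proteasome. All 9 tested class I chains and regulators were higher. Of these, 5 had at least 4 reads in each genotype's vehicle group, and the others had little room to fall. B2m, the invariant light chain, held 3262, 3172 and 3282 CPM under IFNg and 143, 144 and 154 CPM under vehicle (4.46 ± 0.05). H2-D1 and H2-K1 are the classical heavy chains of this strain. H2-D1 held 1864, 1652 and 1724 CPM under IFNg and 65.4, 62.1 and 70.8 CPM under vehicle (4.72 ± 0.07), and H2-K1 rose by 6.46 ± 0.09. The nonclassical H2-T23 rose by 9.65 ± 0.19. Nlrc5, the activator of class I genes, had 1 read over the 3 vehicle libraries and 272 to 286 CPM under IFNg. Its ratio was 4721, with a 95% exact binomial interval of 847 to 186500 that covers counting error only. The list took 0.628% to 0.677% of all reads under IFNg and 0.0227% to 0.0248% under vehicle. H2-Q6, H2-Q7 and H2-T22 had at most 1 read over the 6 libraries, and reads of near-identical class I copies may have been left uncounted or split.

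Peptide supply changed with the chains. The transporter genes Tap1 and Tap2 rose by 7.08 ± 0.08 and 7.48 ± 0.10, and Tap1 held 939, 914 and 913 CPM under IFNg and 5.86, 7.70 and 7.08 CPM under vehicle. The loading factors Tapbp (5.31 ± 0.06) and Tapbpl (5.11 ± 0.09) and the trimming peptidase Erap1 (4.70 ± 0.14) rose too. The general chaperones Canx (-0.24 ± 0.06) and Calr (-0.22 ± 0.04) fell slightly. All 5 immunoproteasome and activator genes rose, though only 3 had at least 4 reads in each genotype's vehicle group and the others had little room to fall. Psmb8 had 1 vehicle read and 209 to 227 CPM under IFNg (ratio 3744, interval 671 to 147910), and Psmb9 had 2 vehicle reads (ratio 1997, interval 552 to 16498). Psmb9 and Tap1 are close neighbours, and how reads were assigned between overlapping genes is not given. Psmb10 rose by 5.22 ± 0.12, Psme1 by 3.63 ± 0.10 and Psme2 by 3.56 ± 0.23. Of the constitutive subunits that these replace, Psmb6 changed by 0.36 ± 0.08, Psmb5 by 0.35 ± 0.15 and Psmb7 by 0.17 ± 0.08. The last was not called, though it passed in 8 alternatives (without Ptpn2-null IFNg replicate 2 at 0.23). The call for Psmb5 (adjusted p = 0.049) was lost with the replicate block and without Ptpn2-null IFNg replicate 1 or 3 or vehicle replicate 2 or 3, at 0.25 to 0.35.

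MHC class II genes also rose, in all 6 tested, but to low levels. The other 4 members, H2-Ab1 among them, had too few reads to test, at most 16 each over the 6 libraries. Only 2 of the 6 tested had at least 4 reads in each genotype's vehicle group, so the others had little room to fall. Ciita, the class II activator, held 14.4, 12.6 and 10.5 CPM under IFNg and 2 reads in all under vehicle (ratio 105, interval 28.8 to 877). The invariant chain Cd74 held 8.75, 7.86 and 10.1 CPM under IFNg, also with 2 vehicle reads. H2-Aa and H2-Eb1 had no vehicle reads and 1.37 ± 0.58 and 1.08 ± 0.21 CPM under IFNg, at least 7.98-fold and 6.08-fold higher.

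The GTPases of cell-autonomous immunity, which attack vacuoles that hold pathogens, were among the genes that rose most. All 10 tested guanylate-binding proteins and all 9 immunity-related GTPases rose. Of these, 3 and 5 had at least 4 reads in each genotype's vehicle group, and the others had little room to fall. Gbp2 held 7211, 7454 and 7353 CPM under IFNg and 6.33, 6.04 and 3.88 CPM under vehicle (10.40 ± 0.09). Igtp held 4076, 3979 and 4090 CPM under IFNg and 0.633, 1.04 and 1.18 CPM under vehicle (12.04 ± 0.11), and Irgm1 held 4304, 4298 and 4288 CPM against 10.3, 10.2 and 8.26 CPM under vehicle (8.81 ± 0.08). Vehicle cells were thus near zero for Igtp and low for the other two. Gm12250 had the largest log2 change among genes with at least 4 vehicle reads, 12.63 ± 0.14, and Gbp3 rose by 10.62 ± 0.11. Iigp1 had 3 vehicle reads against 3334 ± 72.9 CPM under IFNg (ratio 18963, interval 6488 to 91956), and Gbp4 had 1 vehicle read against 1937 ± 42.1 CPM. Gm12185, with no vehicle reads, was at least 5467-fold higher, Gm4841 at least 3162-fold, Gbp10 at least 2788-fold and Gbp5 at least 2117-fold. The GBP list summed to 13349 to 13762 CPM under IFNg and 7.93 to 9.37 CPM under vehicle. The immunity-related GTPases summed to 18364 to 18613 CPM under IFNg and 12.5 to 14.9 CPM under vehicle.

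Antiviral genes rose in all 26 tested. Of these, 20 had at least 4 reads in each genotype's vehicle group, and the others had little room to fall. Ifit1, which binds viral RNA, held 1223, 1132 and 1136 CPM under IFNg and 3.64, 4.37 and 2.87 CPM under vehicle (8.33 ± 0.12). Isg15, a ubiquitin-like modifier, held 857, 720 and 741 CPM under IFNg and 3.01, 2.29 and 2.87 CPM under vehicle (8.12 ± 0.19). Neither gene overlapped between groups. Oasl2 rose by 10.55 ± 0.14 and Ifit3 by 9.17 ± 0.11, and Zbp1, a sensor of Z-form nucleic acid, had 1 vehicle read against 702 ± 22.1 CPM (ratio 11965, interval 2147 to 472650). Oas2 had no vehicle reads and was at least 1165-fold higher. All 6 tested PYHIN genes, the DNA-binding family of Ifi204, rose, with Ifi204 at 10.31 ± 0.15. The list summed to 0.337 to 0.625 CPM under vehicle, and no tested member had at least 4 reads in each genotype's vehicle group. They passed the read filter through treated groups, so a fall could hardly have been found. All 9 tested TRIM genes rose, with Trim30a at 8.38 ± 0.11, and all 6 interferon-induced PARP genes, with Parp14 at 8.5 ± 0.11. At least 4 reads in each genotype's vehicle group were held by 7 of the 9 TRIM genes and by all 6 PARP genes. Apol6, an apolipoprotein L gene with no vehicle reads, was at least 4259-fold higher.

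**Figure D2:**
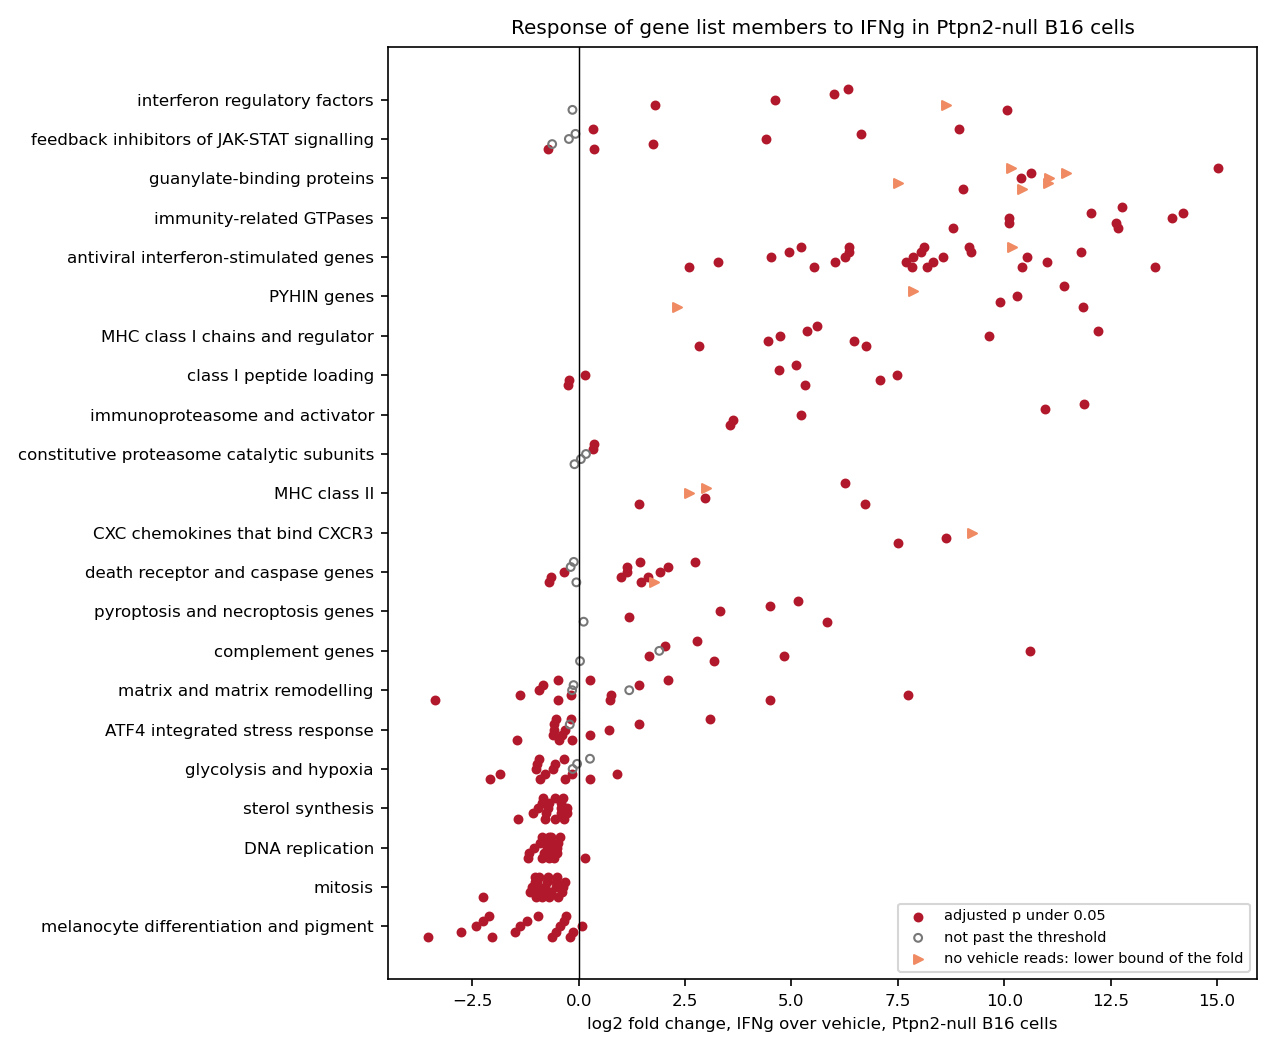
Log2 fold change of IFNg over vehicle in Ptpn2-null B16 cells for the tested members of 22 gene lists, 1 symbol per gene, filled where the adjusted p was under 0.05. Triangles are lower bounds for genes with no vehicle reads, genes with 1 to 3 vehicle reads are drawn at their CPM ratio, and the interferon-induced lists lie to the right of 0 while the sterol, mitosis and melanocyte lists lie mostly to its left.

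Chemokines that bind CXCR3 on T and NK cells rose in 3 of 3. Cxcl10 held 3236, 3241 and 3263 CPM under IFNg and 17.9, 17.7 and 17.9 CPM under vehicle (7.51 ± 0.07). Cxcl9 held 108, 110 and 102 CPM under IFNg and no vehicle reads, at least 605-fold higher, and Cxcl11 had 1 vehicle read and 21.9 to 24.3 CPM under IFNg. Of the 3, Cxcl9 and Cxcl11 were at or near 0 without IFNg. Of 5 other chemokines tested, Ccl5, a chemokine that attracts T cells, held 51.9, 53.8 and 48.7 CPM under IFNg and 2.22, 2.29 and 2.02 CPM under vehicle (4.55 ± 0.14), and Cx3cl1 rose by 3.46 ± 0.54. Ccl2 had 3 reads under IFNg and none under vehicle and was not called, though it passed without IFNg replicate 1.

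Surface ligands of T and NK cell receptors rose in 5 of 7 tested, beside 29.0% of all genes. Cd274, which encodes PD-L1, held 452, 447 and 452 CPM under IFNg and 6.81, 10.2 and 7.59 CPM under vehicle (5.80 ± 0.09). Lgals9 (galectin-9) rose by 4.21 ± 0.07, Cd47, which signals to phagocytes, by 3.17 ± 0.07 and Pvr, a ligand of CD226 and TIGIT, by 1.22 ± 0.08. Tnfrsf14, a ligand of BTLA, rose by 4.69 ± 0.46. Tnfsf9 (4-1BB ligand) was at 4.05 ± 1.59 CPM under IFNg and 5.31 ± 1.31 CPM under vehicle and was not called. Ceacam1, a ligand of TIM-3 and of itself, fell to 1.53, 0.414 and 0.901 CPM under IFNg, against 1.74, 2.29 and 3.20 CPM under vehicle (-1.34 ± 0.47, edgeR adjusted p = 0.013). Its call was lost without IFNg replicate 2 (-0.99) or vehicle replicate 3 (-1.07). The stem cell antigen Ly6a had no vehicle reads and 71.3, 67.2 and 61.1 CPM under IFNg, at least 376-fold higher, and Ly6c1 was at least 100-fold higher.

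Cell death genes moved in both directions. Of 16 death receptor and caspase genes, 10 rose and 3 fell, beside 29.0% higher and 30.4% lower among all genes. Casp8, the initiator of death receptor killing, held 190, 190 and 184 CPM under IFNg and 91.5, 97.9 and 92.6 CPM under vehicle (1.0 ± 0.06). Bid rose by 2.09 ± 0.07, Ripk1 by 1.90 ± 0.07 and Tnfrsf1a, the TNF receptor, by 1.64 ± 0.06. Bax fell (-0.65 ± 0.09), as did the adaptor Fadd (-0.34 ± 0.08). Of 6 pyroptosis and necroptosis genes, 5 rose, beside the same 29.0% of all genes. Casp4, a sensor of bacterial lipopolysaccharide, held 78.1, 79.0 and 77.7 CPM under IFNg and 0.792, 1.87 and 1.52 CPM under vehicle (5.83 ± 0.16). The pore protein gene Gsdmd rose by 5.16 ± 0.15 and Mlkl, the effector of necroptosis, by 3.32 ± 0.06. Dfna5, the gasdermin E gene, was not called (0.12 ± 0.23, adjusted p = 0.68). Casp1 and Ripk3 were among 5 members of this list with too few reads to test, at most 15 each over the 6 libraries.

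Secreted and matrix genes changed as well. The counts here stand beside 29.0% higher and 30.4% lower among all genes. Complement genes rose in 6 of 8 tested, among them C2 (3.18 ± 0.06) and C1ra (4.82 ± 0.11), while C4b had 1 vehicle read and 91.0 ± 4.66 CPM under IFNg. Of 17 matrix genes, 7 rose and 7 fell. Thbs1 (thrombospondin 1) held 707, 731 and 715 CPM under IFNg and 3.48, 2.92 and 3.54 CPM under vehicle (7.74 ± 0.20). Fn1 (fibronectin) held 1776, 1985 and 1855 CPM under IFNg and 81.7, 88.5 and 80.9 CPM under vehicle (4.49 ± 0.10). Both were far above the vehicle libraries in each IFNg library. Collagens went different ways: Col1a1 rose by 1.41 ± 0.20, while Col1a2 fell to 2.84, 2.48 and 1.44 CPM under IFNg, against 21.1, 26.2 and 22.3 CPM under vehicle (-3.37 ± 0.21), and Col4a1 fell (-1.37 ± 0.11). The fibroblast marker list, which holds both collagen genes, is given above. Of 9 IFNg-induced enzymes 7 rose, including the tryptophanyl-tRNA synthetase Wars (1.53 ± 0.05) and the transglutaminase Tgm2 (4.87 ± 0.23). At least 4 reads in each genotype's vehicle group were held by 6 of the 8 complement genes and 6 of the 9 enzymes.

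Genes of melanocyte identity and pigment fell in 17 of 18 tested, where 30.4% of all genes fell. The median log2 change of the list was -1.09, beside -0.01 over all genes. Mitf, the master regulator of the lineage, fell to 256, 250 and 273 CPM under IFNg, against 744, 690 and 757 CPM under vehicle (-1.49 ± 0.06, edgeR adjusted p = 6.8e-30). Tyr (tyrosinase) fell to 93.9, 86.8 and 88.7 CPM under IFNg, against 394, 373 and 400 CPM under vehicle (-2.12 ± 0.09). Trpm1, a melanocyte channel, fell to 25.2, 20.3 and 20.5 CPM under IFNg, against 156, 147 and 143 CPM under vehicle (-2.77 ± 0.08). In all 3 the groups did not overlap. Kit, the receptor for stem cell factor, fell by 3.54 on the log2 scale (SE 0.40), Slc45a2 by 2.41 (SE 0.06), Pmel by 1.38 (SE 0.04) and Dct by 0.97 (SE 0.04). Gpnmb, a melanosome glycoprotein, was the exception, at 7958 ± 99.7 CPM under IFNg and 7525 ± 42.2 CPM under vehicle. Its call (0.08 ± 0.03, adjusted p = 0.040) was lost, at 0.07 to 0.09, without any single one of the 6 libraries other than IFNg replicate 2.

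The cell cycle genes fell. All 24 tested mitosis genes and 20 of 21 DNA replication genes were lower, beside 30.4% of all genes. The median log2 changes of these lists were -0.82 and -0.71. Mki67, the proliferation marker, fell to 176, 215 and 203 CPM under IFNg, against 947, 949 and 940 CPM under vehicle (-2.25 ± 0.06). Plk1, a mitotic kinase, fell to 79.0, 73.2 and 79.0 CPM under IFNg, against 129, 128 and 128 CPM under vehicle (-0.73 ± 0.07). The replicative helicase gene Mcm2 fell by 1.16 (SE 0.04), Rrm1, of ribonucleotide reductase, by 1.06 (SE 0.06) and the cyclin gene Ccna2 by 1.08 (SE 0.06). Ccne1, which encodes cyclin E1, was 109 ± 3.21 CPM under IFNg and 97.5 ± 2.11 CPM under vehicle, and its call in the other direction (0.16 ± 0.06) was lost without IFNg replicate 3 or any 1 vehicle library, at 0.13 to 0.17. Of 15 inhibitors of the cycle and p53 targets 6 were higher and 5 lower, beside 29.0% and 30.4% of all genes. Cdkn1a, which encodes p21, held 325, 301 and 320 CPM under IFNg and 233, 223 and 241 CPM under vehicle (0.44 ± 0.05), Gadd45b rose by 3.06 ± 0.15, and Ccng1 fell (-0.95 ± 0.06). Cdkn1b (0.02 ± 0.06), Ccnd1 (0.03 ± 0.06) and Myc (-0.18 ± 0.10) were not called.

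Sterol synthesis genes fell in 18 of 18 tested, beside 30.4% of all genes, with a median log2 change of -0.63. Insig1, a sterol-responsive regulator of the pathway, fell to 160, 159 and 144 CPM under IFNg, against 402, 423 and 414 CPM under vehicle (-1.42 ± 0.06). Hmgcs1, an early enzyme of the pathway, fell by 0.85 (SE 0.06), Mvd by 1.07 (SE 0.12) and Sc4mol by 0.95 (SE 0.05). Glycolysis and hypoxia genes fell in 12 of 17, beside the same share of all genes. Slc16a3, a lactate exporter, held 23.4, 22.7 and 29.6 CPM under IFNg and 96.0, 97.2 and 81.9 CPM under vehicle (-1.85 ± 0.20), and Pdk1 fell as well (-1.01 ± 0.11). Hexokinase 2 (Hk2) went the other way, at 0.90 ± 0.07, and Pkm2 was not called (-0.04 ± 0.07).

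Outside the lists, the largest falls among called genes were in Gpr37, a G protein-coupled receptor, and Abca12, a lipid transporter. Gpr37 fell to 0.438, 0.414 and 0.721 CPM under IFNg, against 14.3, 14.4 and 16 CPM under vehicle (-4.74 ± 0.31). Abca12 fell to 3.50, 2.69 and 1.98 CPM under IFNg, against 66.2, 57.9 and 61.2 CPM under vehicle (-4.52 ± 0.18). Npnt (-4.35 ± 0.35), Megf6 (-3.83 ± 0.15) and Spsb4 (-3.33 ± 0.14) fell as well. Among the genes that lost the most CPM were Ctnnb1, which encodes beta-catenin (-0.91 ± 0.05), the growth factor receptor gene Met (-0.78 ± 0.08) and the desaturase gene Scd2 (-0.81 ± 0.05).

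The response of Ptpn2-null cells was then set against that of control cells, which shares no library with it. In control cells 4444 genes were called (37.9%), 2344 higher (20.0%) and 2100 lower (17.9%), and 608 were at least 2-fold higher (5.19%) and 200 at least 2-fold lower (1.71%). Called in both were 3819 genes, 54.8% of the Ptpn2-null calls and 85.9% of the control calls, and 3762 of them had the same sign. The log2 changes of all 11726 genes correlated at Pearson r = 0.906 and Spearman rho = 0.768, a description across genes, which are not independent replicates. Of the 1129 genes at least 2-fold higher in Ptpn2-null cells, 581 were at least 2-fold higher in control cells. The difference between the responses, Ptpn2-null minus control, was tested as an interaction. It passed for 2516 genes (21.5%), 1064 with a higher value in Ptpn2-null cells (9.07%) and 1452 with a lower one (12.4%). Log2 changes related weakly to transcript length, with Spearman rho = -0.0755 for the Ptpn2-null response, 0.0605 for the control response and -0.167 for the difference. With the length trend removed, the difference passed for 2720 genes.

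**Figure D3:**
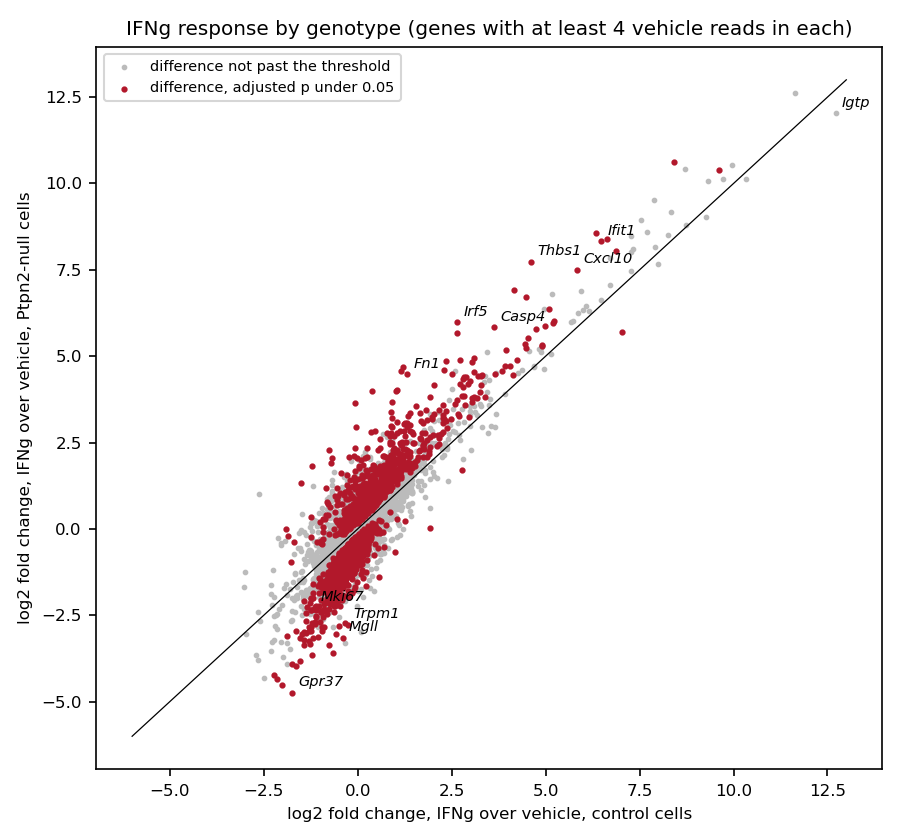
Log2 fold change of IFNg over vehicle in Ptpn2-null cells (vertical axis) and in control cells (horizontal axis), 1 point per gene with at least 4 reads in each vehicle group, red where the difference passed an adjusted p of 0.05. The line marks equal change, and Fn1, Thbs1, Irf5 and Casp4 lie above it while Trpm1, Mgll and Gpr37 lie below it.

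Signalling and interferon-induced genes differed unequally. For Stat2, control cells held 287 ± 8.97 CPM under IFNg and 9.24 ± 1.41 CPM under vehicle, and the difference of -0.32 ± 0.15 did not pass (adjusted p = 0.145). Jak1, raised by 1.09 in Ptpn2-null cells, was raised by 0.40 ± 0.06 in control cells, a difference of 0.69 ± 0.09. Socs3 differed by 1.58 ± 0.21 (161 ± 5.36 against 7.42 ± 2.65 CPM in Ptpn2-null cells, 64.2 ± 3.87 against 8.99 ± 1.20 CPM in control cells). The difference for Irf1 was 0.32 ± 0.11 and did not pass (adjusted p = 0.065), though it passed with RLE size factors, with only the compared groups, without the 5 most deviating B16 libraries and without Ptpn2-null IFNg replicate 2, at 0.34 to 0.36. Irf5, a factor of inflammatory gene induction, differed by 3.35 ± 0.73 from few vehicle reads.

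Cxcl10, Ccl5 and Cd274 rose further in Ptpn2-null cells. Cxcl10 in control cells held 1196, 1219 and 1187 CPM under IFNg and 22.5, 18.9 and 21.9 CPM under vehicle, and the difference was 1.68 ± 0.11 (adjusted p = 4.6e-17). The differences were 1.46 ± 0.34 for Ccl5 and 1.06 ± 0.17 for Cd274, which held 277, 269 and 282 CPM in control IFNg libraries. Cxcl9, with no reads in either vehicle group, held 107 ± 4.13 CPM in Ptpn2-null IFNg libraries and 7.02 ± 0.379 CPM in control IFNg libraries. Ly6a held 66.5 ± 5.14 CPM in Ptpn2-null IFNg libraries, while control IFNg libraries held 0, 1.46 and 0 CPM. The class I genes B2m and H2-D1 differed by less, 0.32 ± 0.07 and 0.66 ± 0.09, and that of B2m was not called once the length trend was removed (0.23, adjusted p = 0.080). For H2-K1 (0.39 ± 0.17) and Tap1 (0.37 ± 0.15) the difference did not pass, and that of H2-K1 passed, at 0.41, with only the compared groups and without the 5 deviating libraries. A higher response in Ptpn2-null cells was called for 9.07% of all genes. Of the list members tested, it was called for 3 of 9 class I genes and 2 of 10 GBP genes. For immunity-related GTPases the count was 0 of 9, and for antiviral genes 9 of 26. Among members with at least 4 reads in each vehicle group, a restriction added after seeing the data, these counts were 3 of 5, 2 of 3, 0 of 5 and 8 of 20, in the same order. Without Ptpn2-null vehicle replicate 2 the GTPase count was 1, and the antiviral count was 15 with only the compared groups or without the 5 deviating libraries. Gbp2 differed by 0.79 ± 0.18 and Ifit1 by 1.86 ± 0.27, and Igtp (-0.68 ± 0.48) and Irgm1 (0.07 ± 0.15) did not pass. Igtp and the other GTPases with few vehicle reads have wide errors here, and a p that misses the threshold does not show that the responses were equal.

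Some death and matrix genes had a larger response in Ptpn2-null cells and some a smaller or more negative one. Of 16 death receptor and caspase genes the difference was called higher for 7 and lower for 2, and lower for 1 with DESeq2, with RLE size factors or without any of several single libraries. Of 6 pyroptosis and necroptosis genes it was called higher for 3, and of 17 matrix genes higher for 6 and lower for 2, against 9.07% higher and 12.4% lower among all genes. The difference was 2.2 ± 0.44 for Casp4, 0.78 ± 0.10 for Ripk1, 0.65 ± 0.09 for Mlkl and 0.34 ± 0.09 for Casp8. For Fn1 control cells held 257, 224 and 212 CPM under IFNg and 95.9, 95.9 and 87.3 CPM under vehicle, and the difference was 3.17 ± 0.14 (adjusted p = 2.9e-18). Each Ptpn2-null IFNg library was thus far above each control IFNg library for Fn1. The 2 lower matrix genes were Col1a2 (-1.95 ± 0.29) and Col4a1 (-0.60 ± 0.15). Thbs1 differed by 3.13 ± 0.42, Crabp2, a retinoic acid-binding protein gene, by 3.47 ± 0.49 and Tmem88b by 3.62 ± 0.78. The difference for Tgm2, 2.52 ± 0.74, was lost without control vehicle replicate 2 (2.47) or 3 (2.21).

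The falls were deeper in Ptpn2-null cells too. The difference was called lower for 14 of 18 melanocyte genes and 21 of 24 mitosis genes, beside 12.4% of all genes. It was called lower for 17 of 21 DNA replication genes and 17 of 18 sterol synthesis genes. Of the 18 melanocyte genes Trpm1 had the largest difference (-2.50 ± 0.10): control cells held 129, 132 and 126 CPM under IFNg and 149, 154 and 163 CPM under vehicle. Mitf differed by -0.88 ± 0.08, Tyr by -1.30 ± 0.12, Mki67 by -1.11 ± 0.09 and Plk1 by -0.64 ± 0.09. Plk1 was not called in control cells (-0.09 ± 0.06). In control cells 2 of 18 sterol synthesis genes were higher and 2 lower, beside 20.0% and 17.9% of all genes. Hmgcs1 held 250 ± 5.58 CPM under IFNg and 255 ± 1.13 CPM under vehicle there. The difference for Hmgcs1 was -0.82 ± 0.08. Cdkn1a rose in Ptpn2-null cells and fell in control cells, to 292 ± 10.4 CPM under IFNg against 327 ± 24.5 CPM under vehicle. The difference was 0.60 ± 0.08. The Ptpn2-null vehicle libraries, given above, were below the control vehicle level, while the IFNg levels of both genotypes were close. The difference for Cdkn1a thus lay more in the vehicle levels than in the IFNg levels. Mgll, the monoacylglycerol lipase gene, differed by -2.75 ± 0.27.

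**Figure D4:**
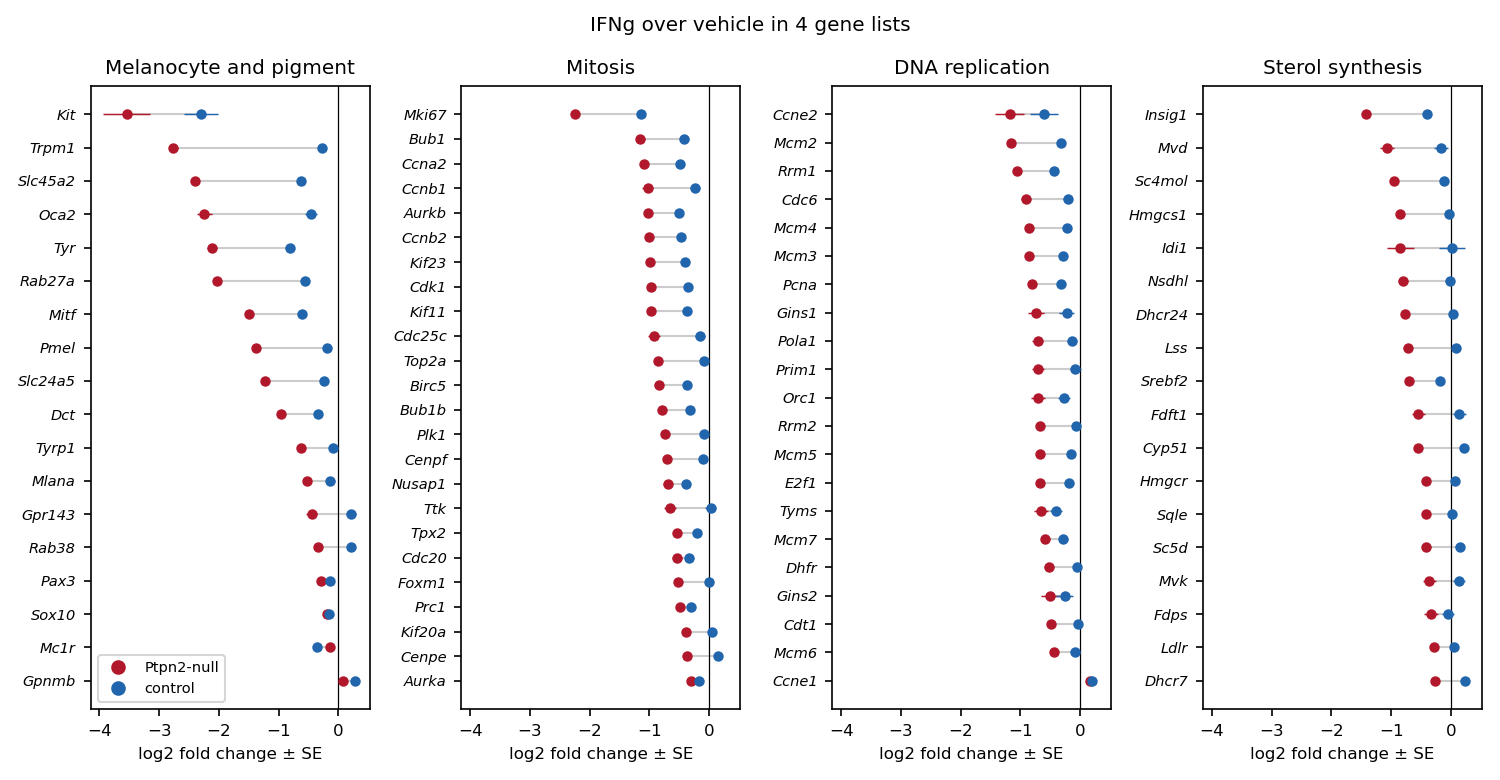
Log2 fold change ± SE of IFNg over vehicle in Ptpn2-null cells (red) and control cells (blue) for the tested melanocyte and pigment, mitosis, DNA replication and sterol synthesis genes. Trpm1 was at -2.77 in Ptpn2-null cells and -0.27 in control cells, and the sterol genes of control cells lie around 0.

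Ptpn2-null cells were also given IFNb (1000 U/mL), TNFa (10 ng/mL) and pairs of the cytokines for 48 h. These groups share the vehicle libraries, so their levels are set side by side without a test, as means ± SD of 3 libraries. Replicate 1 under TNFa, replicate 3 under IFNb and IFNg, and replicate 1 under IFNg and TNFa are among the 5 libraries that deviated most from their groups. In a comparison added after seeing the data, the means over 3 libraries were 0.888 to 1.08 times those over the other 2 libraries, for the 8 genes given here (Ly6a had no reads under TNFa). Irf1 was at 1202 ± 28.6 CPM under IFNg, 1301 ± 31.8 with IFNb added and 1417 ± 19.3 with TNFa added. IFNb alone gave 38.8 ± 2.22 CPM and TNFa alone 29.2 ± 0.569 CPM, and vehicle cells held 14.9 ± 1.09 CPM. The 3 groups that had IFNg were thus the high ones. Cxcl9 was at 107 ± 4.13 CPM under IFNg, 96.8 ± 6.0 with IFNb added and 8808 ± 284 with TNFa added. Ccl5 was at 51.4 ± 2.57 CPM under IFNg, 16.7 ± 1.58 with IFNb added and 4356 ± 434 with TNFa added. Both chemokines were highest with IFNg and TNFa together. Fn1 was at 1872 ± 106 CPM under IFNg, 889 ± 79.0 with IFNb added and 3356 ± 449 with TNFa added. Ly6a was at 66.5 ± 5.14 CPM under IFNg, 406 ± 43.1 with IFNb added and 368 ± 41.1 with TNFa added, the last 2 within their spread of each other. Gbp2 stayed high in all 3, at 7340 ± 122 CPM under IFNg, 6345 ± 4.82 with IFNb added and 6938 ± 221 with TNFa added. Mki67 was at 198 ± 20.1 CPM under IFNg, 165 ± 15.1 with IFNb added and 29.7 ± 5.02 with TNFa added, and 945 ± 4.60 under vehicle. Trpm1 was at 22 ± 2.75 CPM under IFNg, 20.3 ± 3.13 with IFNb added and 3.29 ± 0.480 with TNFa added. For Trpm1, IFNg alone and IFNg with IFNb lay within their spread.

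**Figure D5:**
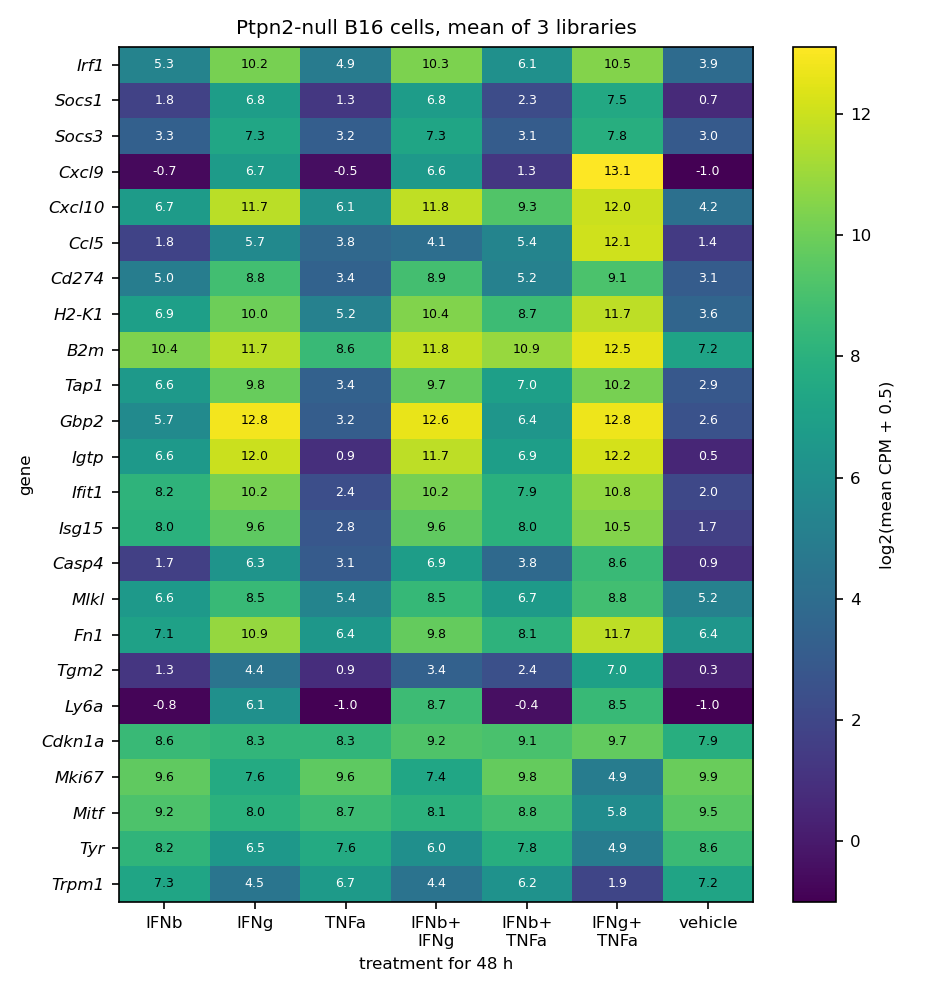
Log2(mean CPM + 0.5) of 24 genes in Ptpn2-null B16 cells after 48 h with IFNb, IFNg, TNFa, their 3 pairs or vehicle, 3 libraries each. Interferon-induced genes such as Irf1 and Gbp2 are high in the 3 columns with IFNg, and Mki67 and Mitf are lowest with IFNg and TNFa.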

How the data were processed

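RNA-seq of cultured B16 cells was analysed from the raw read counts per gene that the authors deposited. Per the submitters' processing notes, the tools, listed with no role or order, include Bowtie2 2.2.4, HTSeq 0.6.1p1, Trimmomatic 0.33, bcl2fastq 2.17.1.14 and DESeq2, and the mouse build listed is mm10. Not given in the sources used here are the annotation, the strand setting and the treatment of overlapping genes and near-identical copies. Counts were whole numbers for 23336 genes, and the 11726 kept by filterByExpr held 99.9% of the reads.

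Counts were fitted with edgeR 4.0.16 (R 4.3.3) over all 42 B16 libraries in 14 groups of 3, with TMM scaling, robust dispersions, 1 mean per group, the quasi-likelihood F test and Benjamini-Hochberg adjustment over all tested genes. The common biological coefficient of variation was 0.0521. Each SE is the absolute log2 change divided by the square root of F, which can understate the counting error of large changes from few reads. CPM uses TMM-scaled library sizes. Folds of genes with no vehicle reads are bounds against a floor of 3 reads over the group; genes with 1 to 3 vehicle reads have ratios with 95% exact binomial intervals. Intervals and floors cover counting error only. Differences between genotypes are printed for genes with at least 4 reads in each vehicle group, and levels of different genes are not compared.

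The members, the 35 gene lists and the tests were chosen with earlier results of these data known, so list counts are descriptions. The genes named are a fixed set, the largest changes and differences among genes averaging 1 log2 CPM or more, the largest changes in CPM, the highest genes with at most 3 vehicle reads, and up to 5 called members per direction and 3 uncalled members of each list. Symbols were matched through RefSeq synonyms, and H2-L and Trim5 were not matched. Promoters came from RefSeq (GRCm38.p6) and transcript lengths from GENCODE M21. Same-numbered replicates shared little of their deviation, with correlations of 0.101, 0.0247 and 0.0491 between Ptpn2-null IFNg and vehicle libraries. The first was just past the value of 0.1 set for this check and the others were below it. No pairing was used in the main fit, and a replicate block was run as an alternative. No 2 replicates were alike within sampling noise (chi-square per degree of freedom 1.26 to 2.37).

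Alternatives were DESeq2 1.42.0, DESeq2's size factors in edgeR (RLE), no filter, a replicate block, only the compared groups, each library left out, removal of the trend on transcript length, and leaving out the 5 B16 libraries that deviated most from their groups, none of them in the 4 groups compared here. On simulated data with 200 changed genes, the Ptpn2-null comparison recovered 179 with 16 false calls among 11667 genes tested (74% of 1.5-fold and 96% of 2-fold changes), and the difference recovered 154 with 10 false calls among 11666. The largest change put in was 4-fold. Recovery with as many and as large changes as found here, 6964 genes called and 288 at least 16-fold higher, was not tested.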

Additional observations from a re-analysis of the deposited data

Results flagged for a closer look

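The IFNg response differed between Ptpn2-null and control cells, by the test of the difference itself (edgeR interaction, Ptpn2-null minus control), for 2516 genes, 1064 higher and 1452 lower; 247 were at least 2-fold higher and 171 at least 2-fold lower (n = 3 libraries a group). No explanation was weighed, and the guide and the cells that carry it cannot be told apart.

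Among the genes with the largest differences, Tmem88b (3.62), Crabp2 (3.47), Irf5 (3.35), Fn1 (3.17), Thbs1 (3.13), Gadd45g (3.02), Rab11fip5 (3.0), Cdsn (2.97), Tmsb4x (2.95), Sod3 (2.76), 4933412E12Rik (2.74) and Tgm2 (2.52) rose further in Ptpn2-null cells, in log2 units. Rab11fip5 held 19.3, 21.1 and 17.8 CPM in Ptpn2-null IFNg libraries and 1.43, 2.29 and 3.71 CPM in Ptpn2-null vehicle libraries, and it was not called in control cells (-0.04 ± 0.32). Gpr37 (-3.0), Mgll (-2.75), Fam83f (-2.61), Abca12 (-2.51), Trpm1 (-2.50), Sema6d (-2.46), Cmtm5 (-2.42), 4931408A02Rik (-2.39), Nek10 (-2.34), Megf6 (-2.30), Npnt (-2.21) and Fam81a (-2.15) fell further in Ptpn2-null cells. The call for Tgm2 was lost without control vehicle replicate 2 (2.47) or 3 (2.21). The call for Nek10 was lost without control IFNg replicate 3, Ptpn2-null IFNg replicate 2 or 3 or Ptpn2-null vehicle replicate 3, at -2.24 to -1.78.

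Of the fixed genes, the difference was called higher for Casp4 (2.2), Ifit1 (1.86), Cxcl10 (1.68), Socs3 (1.58), Ccl5 (1.46), Cd274 (1.06), Gbp2 (0.79), Ripk1 (0.78), H2-D1 (0.66), Mlkl (0.65), Cdkn1a (0.60), Casp8 (0.34) and B2m (0.32). It was called lower for Tyr (-1.30), Mki67 (-1.11), Mitf (-0.88) and Plk1 (-0.64).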

How the results depend on the processing

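No called value reversed under any alternative run. The count for the Ptpn2-null response, 6964 genes, was 6614 with DESeq2, 6932 with RLE size factors, 6959 with no filter, 7205 with the length trend removed, 7275 with only the compared groups, 7423 without the 5 deviating libraries and 6430 to 6537 with a library left out. With the replicate block, although same-numbered replicates shared little of their deviation, it was 6949, of which 6922 were called in both fits. Of the list counts given, the antiviral genes with a higher response in Ptpn2-null cells, 9, became 15 with only the compared groups and also without the 5 libraries; the cause was not tested. The NF-kB genes with a higher response, 5, became 3 with no filter, and were 3 to 5 with a library left out, 3 without control IFNg replicate 1. Single genes whose calls were lost or gained in some settings include Gpnmb, Ccne1, Psmb5, Relb, Nfkbia, Trib3, Pdia4, Stat5a, Ceacam1 and Psmb7 for the response, and B2m, Nek10, Tgm2, Irf1 and H2-K1 for the difference. Depth limits genes with few vehicle reads, whose folds are bounds or ratios with wide intervals.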

Other observations

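Stress genes of Ptpn2-null cells moved unequally under IFNg. Of 15 tested genes of a list for ATF4, the factor of the integrated stress response, 4 were higher and 10 lower. Among all genes 29.0% were higher and 30.4% lower. The list holds Atf4 itself, which was among the lower genes. Atf3 held 159, 136 and 150 CPM under IFNg and 17.7, 16.4 and 18.2 CPM under vehicle (3.08 ± 0.10), and Ddit3, which encodes CHOP, rose by 1.41 ± 0.15. Ddit4, an inhibitor of mTORC1, fell by 1.45 (SE 0.12), the cystine transporter gene Slc7a11 by 0.61 (SE 0.11) and the serine pathway gene Shmt2 by 0.52 (SE 0.05). Of 15 chaperone and unfolded protein response genes, 3 were higher and 8 lower, beside the same shares of all genes. Herpud1 fell by 0.98 (SE 0.09), Dnajb9 rose by 0.56 ± 0.12, and Hspa5 was not called (-0.02 ± 0.04). The vehicle libraries spread widely for some of these, with Chac1 at 56.9, 58.7 and 58.4 CPM under IFNg and 69.0, 90.0 and 100 CPM under vehicle.

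Of 14 genes of the NF-kB pathway 4 were higher and 4 lower, shares near the 29.0% and 30.4% of all genes, and 2 were lower without Ptpn2-null IFNg replicate 3 or vehicle replicate 3. Nfkb2 held 38.1, 39.9 and 42 CPM under IFNg and 50.8, 54.1 and 55.3 CPM under vehicle (-0.41 ± 0.08), against -0.98 ± 0.08 in control cells. Relb held 16.8, 17.8 and 14.6 CPM under IFNg and 18.8, 22.3 and 22.4 CPM under vehicle in Ptpn2-null cells, and 7.96, 6.80 and 6.81 CPM under IFNg and 21.7, 24.6 and 24 CPM under vehicle in control cells, a difference of 1.33 ± 0.22 (edgeR adjusted p = 4.8e-06). The fall of Relb within Ptpn2-null cells (-0.37 ± 0.14) lost its call without IFNg replicate 3 (-0.28), vehicle replicate 2 (-0.34) or vehicle replicate 3 (-0.32). The difference was called higher for 5 of the 14, beside 9.07% of all genes. Opposite calls in the 2 genotypes were made for 57 genes.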
